A study of Mus musculus with 6 samples.

Results

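Complement is a cascade of plasma and tissue proteins that tags targets for clearance. It is started through C1 (the classical route), through lectins and their MASP proteases, or through the alternative route, and all of them meet at the cleavage of C3. C1r and C1s are the proteases of C1, C4 and C2 form the convertase of the classical and lectin routes, and factor B and factor D are the proteases of the alternative route. Host cells carry CD55, which takes convertases apart, and CD59, which blocks the membrane attack complex. The cornea is an avascular tissue in which resident cells make part of the complement found there.

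The transcripts of these complement components and regulators were examined in sorted corneal keratocytes, the mesenchymal cells of the corneal stroma, of 6 mouse samples. The genes were taken by name from a list of 9 (C1ra, C1s1, C2, C3, C4b, Cfb, Cfd, Cd55 and Cd59a). Of these, 8 were found among the 17606 genes measured and all 8 had enough counts to be tested, while Cfd (factor D) was not analysed here. The 3 control and 3 Ptch1-ablated libraries came from mice given in the labels as 10-week-old, all of which received 3 doses of tamoxifen with a treatment of 1 month. Whether that age is at induction or at sampling is not stated, and the study's text describes induction at a somewhat younger age. The ablated mice carried Prrx1-CreERT and floxed Ptch1, so that tamoxifen was to remove the Hedgehog receptor Ptch1, and the genotype of the controls is given in the labels as ctrl only. Prrx1-CreERT is a knock-in allele that, by the study's account, also recombines in corneal endothelial cells, and the number of animals behind a library and the sorting gate were not given in the sources used here. The comparison asked how complement transcripts differed once Hedgehog signaling was switched on in keratocytes.

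Libraries held 20258439 to 24788063 estimated counts. Ptch1 itself had 104 to 369 counts in controls and 4348 to 6230 in ablated libraries, a total over the gene that does not resolve the deleted exons. The Hedgehog target Gli1 had 1 to 36 counts in controls and 3022 to 3098 in ablated libraries. The keratocyte genes Kera and Aldh3a1 were abundant in both groups, with a mean TPM (a level scaled for transcript length and to the same sum in every library) of 15640.3 and 32231 in controls and 5997 and 24119 in ablated libraries, whereas Ptgds was near 0 (0.363 and 3.81). Control replicate 1 and ablated replicate 2 stood apart on the second principal component, which held 19.9% of the variance. In bulk RNA, fewer cells of a type and less RNA per cell cannot be told apart.

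Sequences upstream of the start sites were taken from RefSeq (GRCm38.p6) for 5 of the 8 genes. They are shown for C3, whose level varied most relative to its mean among ablated libraries. They are also shown for C1ra and C1s1, neighbours on chromosome 6 whose transcripts fell together. Each runs from 250 bases before to 50 bases after a start site, at chr6:124512371-124512670 on the plus strand for C1ra, chr6:124542310-124542609 on the minus strand for C1s1 (1 of its 2 listed start sites) and chr17:57228087-57228386 on the minus strand for C3. Capitals mark matches to a C/EBP motif (TTGCNNAA) or, in C1ra, also to a GAS motif, the element bound by STAT factors (TTCNNNGAA), on either strand.
C1ra: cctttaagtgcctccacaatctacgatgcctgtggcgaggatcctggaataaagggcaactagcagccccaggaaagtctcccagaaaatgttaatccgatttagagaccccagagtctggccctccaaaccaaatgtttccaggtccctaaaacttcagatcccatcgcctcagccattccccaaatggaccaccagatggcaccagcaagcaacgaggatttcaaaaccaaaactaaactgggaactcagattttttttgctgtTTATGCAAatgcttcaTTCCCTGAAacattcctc
C1s1: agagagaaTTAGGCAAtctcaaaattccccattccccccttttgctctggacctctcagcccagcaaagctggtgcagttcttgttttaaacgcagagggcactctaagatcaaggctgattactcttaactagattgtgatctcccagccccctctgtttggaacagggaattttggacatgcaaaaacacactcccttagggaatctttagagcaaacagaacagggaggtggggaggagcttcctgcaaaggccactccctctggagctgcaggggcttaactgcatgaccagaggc
C3: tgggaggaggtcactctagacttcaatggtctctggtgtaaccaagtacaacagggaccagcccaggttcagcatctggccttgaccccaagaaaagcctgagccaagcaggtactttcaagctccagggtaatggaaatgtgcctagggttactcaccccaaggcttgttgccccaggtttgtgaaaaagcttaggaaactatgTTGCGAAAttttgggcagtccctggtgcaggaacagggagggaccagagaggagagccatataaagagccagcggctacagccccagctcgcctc

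The 5 genes had 6 such windows, since C1s1 has a pair of start sites. The C/EBP motif was found in 3 of the 6 windows and in 10.8% of all 32851 promoters of this length, and the GAS motif in 1 of the 6 and in 8.30% of all. The C1s1 window that is not shown held none of the motifs searched. The matches in C1ra lay 16 bases (C/EBP) and 32 bases (GAS) after the start site, that in C1s1 at an offset of -242 and that in C3 at an offset of -45, both before it. Neither a GLI motif (TGGGTGGTC, 0.253% of all promoters) nor an NF-kB motif (8.46%) matched in any of the 6 windows. No window was available here for C2, C4b and Cfb, so none of the motifs was searched in those genes. A match describes the letters of a window and not a bound site.

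The levels of the 8 genes spanned nearly 3 orders of magnitude. In controls C1s1 was highest at 952 ± 206.5 TPM, followed by C1ra at 680.03 ± 133 and, far below, the membrane regulator Cd59a at 61.8 ± 4.33 (SD, n = 3 each). C4b (34.0 ± 3.32 TPM), C2 (15.0 ± 3.13), Cfb (6.39 ± 2.57), C3 (2.75 ± 0.725) and Cd55 (1.00 ± 0.448) came next (SD, n = 3 each). The central component C3 was thus among the lowest, and the TPM of C4b was 11.2 to 15.9 times that of C3 in the control libraries. Only C1s1 and C1ra overlapped with a neighbour in this order in controls. In ablated libraries the order by mean was the same, but C2 and Cfb overlapped (15.3 to 29.0 and 20.3 to 24.2 TPM), as did C3 and Cd55 (2.34 to 8.66 and 2.67 to 6.10 TPM).

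**Figure D1:**
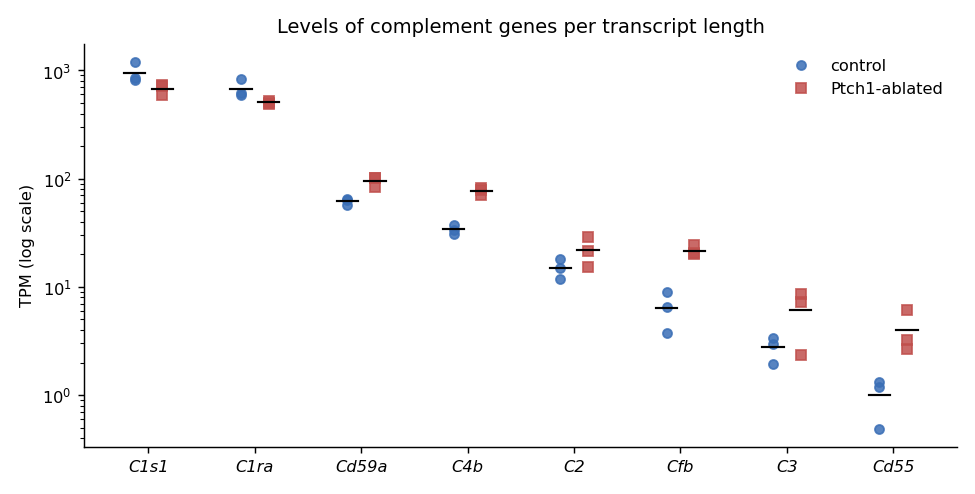
TPM of each of the 8 complement genes on a log axis, with 1 point per library (blue circles, control; red squares, Ptch1-ablated) and a bar at the mean of 3 libraries. C1s1 and C1ra stand at 495 TPM or more in every library, while C3 and Cd55 reach at most 8.66 TPM.

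C1ra and C1s1 made up 83.8% to 94.5% of the summed TPM of the 8 genes in a library. That sum was 1536 to 2142 TPM in controls and 1295 to 1499 in ablated libraries. Without C1ra and C1s1 it was 119 to 123 TPM in controls and 209 to 239 in ablated libraries. The first sum was lower and the second higher in every ablated library than in any control.

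Between groups, 4 of the 8 genes had an adjusted p of at most 0.05 in edgeR, as did 8.48% of the 13888 genes tested. C4b and Cfb were higher (2 of 8, against 4.68% of all genes higher) and C1ra and C1s1 were lower (2 of 8, against 3.8% of all genes lower). With the fold change of at least 2 that the study's methods also ask for, only Cfb was called, against 5.49% of all genes. In 6 of the 8 genes the groups did not overlap in CPM (counts scaled by library size and TMM factor, not by length), as was the case for 27.4% of all genes tested. In what follows, paired values are the mean ± SD of controls and of ablated libraries (n = 3), a change is the log2 fold change of ablated over control ± SE, and each adjusted p is from edgeR unless limma is named. The median change was 0.69 for the 8 genes and 0.0046 for all genes tested.

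**Figure D2:**
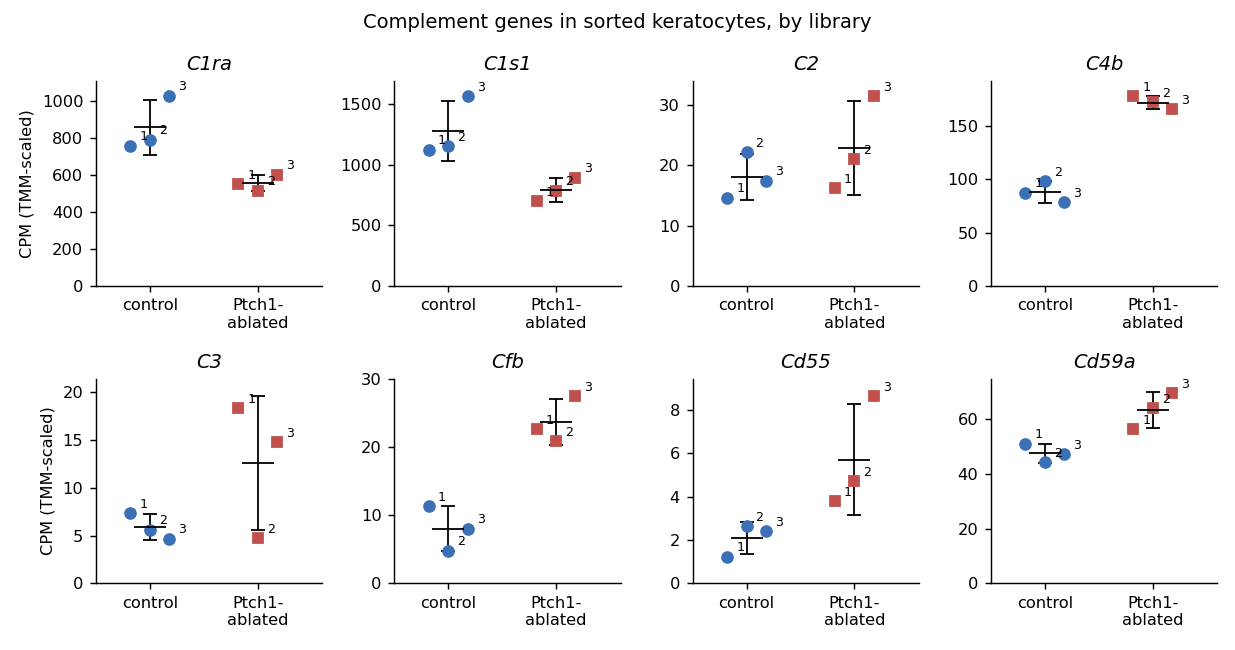
CPM of each gene in every library, numbered by replicate, with the mean and SD of 3 libraries in black and axes that start at 0. The groups separate for C1ra, C1s1, C4b, Cfb, Cd55 and Cd59a and overlap for C2 and C3, where ablated replicate 2 (4.72 CPM) lies within the control range.

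The C1 proteases were lower in Ptch1-ablated keratocytes. C1ra (Entrez 50909), which encodes the protease that activates C1s, had 759, 791 and 1031 CPM in control replicates 1 to 3 and 549, 516 and 602 CPM in the ablated ones. Every ablated library was below every control library, and the mean fell to 0.646 of the control level (a change of -0.63 ± 0.14, adjusted p = 0.0145). C1s1 (Entrez 50908), whose protein cleaves C4 and C2, had 1125, 1151 and 1568 CPM in controls and 697, 784 and 891 CPM in ablated libraries. The groups again did not overlap, at 0.617 of the control level (-0.70 ± 0.15, adjusted p = 0.0122). Control replicate 3 was the highest library for both genes, and without it C1ra was at -0.48 with an adjusted p of 0.0548. Leaving out ablated replicate 1 (-0.62) or 2 (-0.57) also took C1ra above an adjusted p of 0.05. C1s1 lost its call without the same libraries, at -0.61 and -0.68, and neither gene passed in limma on log2(TPM + 1), with changes of -0.41 and -0.47.

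The proportion of the pair overlapped between groups. The ratio of C1s1 to C1ra TPM was 1.39, 1.37 and 1.43 in controls and 1.19, 1.43 and 1.39 in ablated libraries, with ablated replicate 1 the lowest. In the annotation C1ra lies between C1rl and C1s1 on chromosome 6, and C1rl, a C1r-like protease gene, was also lower. It went from 73.8 ± 7.67 to 47.7 ± 3.73 CPM, a change of -0.63 ± 0.18 (adjusted p = 0.0480). The call of C1rl was lost in 13 of 16 alternatives, among them each of the 6 fits without a library (-0.69 to -0.54). The paralog C1rb, on the other side of C1s1, was not analysed here. Its longest transcript is 98% identical to that of C1ra, so reads of C1rb may be part of the C1ra value. The counts of C1ra were whole numbers in every library, which does not decide this without the annotation used. C1s1 is 95.9% identical to C1s2, which had a mean of 0.0497 CPM in controls and 0.295 CPM in ablated libraries. An antisense gene (Gm16567) overlaps C1s1, and whether counting used strand was not stated.

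Among the 4 genes that passed, only C4b did so in all 16 alternatives. C4b (Entrez 12268), which encodes complement C4, had 87.6, 98.3 and 78.4 CPM in controls and 178, 172 and 166 CPM in ablated libraries. The spread within each group was small beside the difference, and the level was 1.95 times that of controls (change 0.97 ± 0.15, adjusted p = 0.00147). The change was 0.89 to 1.18 over the alternatives. Its transcript is 96.1% identical to that of the paralog C4a, which was not analysed here, so reads of C4a may be part of this value. The counts of C4b were whole numbers in every library, but the annotation used for counting was not given, so this does not decide it. C2 (Entrez 12263), the partner of C4 in the convertase, had 14.6, 22.2 and 17.5 CPM in controls and 16.2, 21.0 and 31.6 CPM in ablated libraries. The groups overlapped, and C2 did not pass the test (0.34 ± 0.31, 95% interval -0.33 to 1.01, adjusted p = 0.604).

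Cfb, the protease of the alternative C3 convertase, was higher in ablated libraries, with a 95% interval of the change of 0.79 to 2.32. Cfb (Entrez 14962) had 11.4, 4.79 and 8.01 CPM in controls and 22.6, 20.9 and 27.5 CPM in ablated libraries. Each ablated library exceeded each control library, with a level 2.93 times that of controls (change 1.55 ± 0.35, adjusted p = 0.0158). Without control replicate 2, the lowest control, the log2 fold change was 1.29 (adjusted p = 0.0551), and without ablated replicate 3, the highest library, it was 1.43 (adjusted p = 0.0840). Cfb and C2 are close neighbours on chromosome 17, on the same strand, and a read-through transcript (Gm20547) is annotated across both. C2 also overlaps Zbtb12 on the other strand. The ratio of Cfb to C2 TPM was 0.745, 0.207 and 0.440 in controls and 1.34, 0.953 and 0.835 in ablated libraries. These ratios did not overlap, although the gap between the highest control and the lowest ablated library was small. With 3 libraries against 3 an exact permutation test cannot go below a two-sided p of 0.1, and none was used for the ratios.

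**Figure D3:**
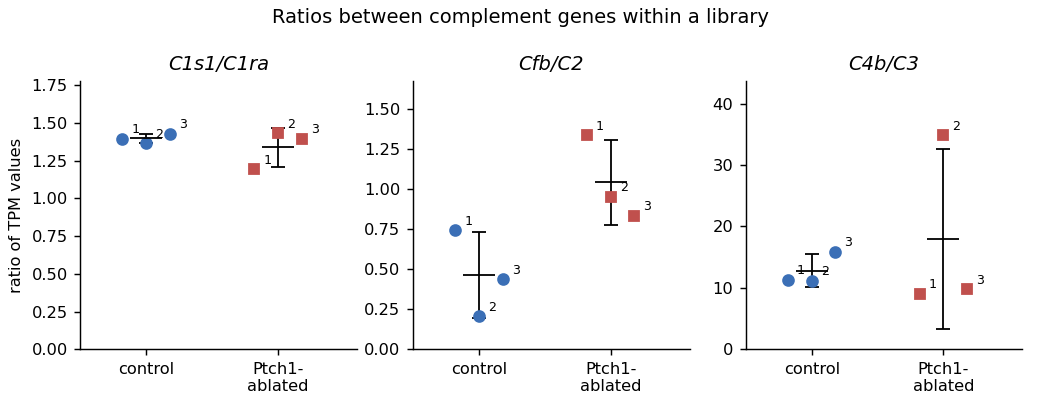
Ratio of TPM values of 2 genes within each library, numbered by replicate, with the mean and SD of 3 libraries in black and axes that start at 0. C1s1/C1ra and C4b/C3 overlap between groups, while Cfb/C2 is at most 0.745 in controls and at least 0.835 in ablated libraries.

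C3 (Entrez 12266), from which all routes continue, had 7.34, 5.63 and 4.68 CPM in controls and 18.3, 4.72 and 14.7 CPM in ablated libraries. Ablated replicates 1 and 3 were above every control, and ablated replicate 2 was lower than control replicates 1 and 2. C3 did not pass the test (change 1.10 ± 0.49, 95% interval 0.035 to 2.16, unadjusted p = 0.0440, adjusted p = 0.225). Without ablated replicate 2, one of the libraries that stood apart, it did (1.49, adjusted p = 0.0439). The ratio of C4b to C3 TPM was 34.8 in that library, 9.09 and 9.82 in the other ablated libraries and 11.3, 11.2 and 15.9 in controls.

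The membrane regulators had higher values in ablated libraries, without passing the test. Cd59a (Entrez 12509), the inhibitor of the membrane attack complex, had 51.2, 44.4 and 47.2 CPM in controls and 56.4, 64.1 and 69.6 CPM in ablated libraries. The groups did not overlap, by a narrow margin (change 0.41 ± 0.18, 95% interval 0.019 to 0.81, adjusted p = 0.217). In limma on log2(TPM + 1) the difference was 0.61 with an adjusted p of 0.0281. Cd55 (Entrez 13136), which speeds the decay of C3 convertases, had 1.24, 2.63 and 2.41 CPM in controls and 3.79, 4.72 and 8.62 CPM in ablated libraries, from 27.3 to 214 counts. The groups did not overlap but the ablated libraries were spread widely (1.45 ± 0.64, 95% interval 0.045 to 2.85, adjusted p = 0.225), and in limma on log2(TPM + 1) the adjusted p was 0.0489. Both genes have a paralog, 87.1% identical for Cd59b and 88.6% for Cd55b, and their counts were not whole numbers in any of the 6 libraries as RSEM gives where genes share reads. Cd55b had no counts in controls, and Cd59b, at 5.92 ± 0.733 and 4.52 ± 0.302 CPM, did not pass (-0.39 ± 0.47, adjusted p = 0.722). Cd55 also overlaps an antisense gene (Gm16083).

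The rest of the complement system was read from a list of 46 further genes, of which 36 were among the genes measured and 25 had enough counts to be tested. Of these, 2 were higher and 4 lower at an adjusted p of at most 0.05 (6 of 25, against 8.48% of all genes), with a median change of -0.090. Of the soluble inhibitors, Clu, for clusterin, which binds terminal complement complexes, reached 83.2 ± 11.1 CPM from 34.4 ± 2.88 (1.27 ± 0.19, adjusted p = 0.000916). Vtn, for vitronectin, was at 6.97 ± 4.15 and 20.4 ± 7.10 CPM (1.55 ± 0.48, adjusted p = 0.0718), and was called by some of the alternatives, DESeq2 among them. Serping1, which encodes the inhibitor of C1r and C1s, was the most abundant complement gene tested, at a mean of 4377 TPM in controls and 4129.9 in ablated libraries. In CPM, the scale of the test, it was at 3483 ± 227 and 2847 ± 399 and did not pass (-0.29 ± 0.12, adjusted p = 0.167).

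**Figure D4:**
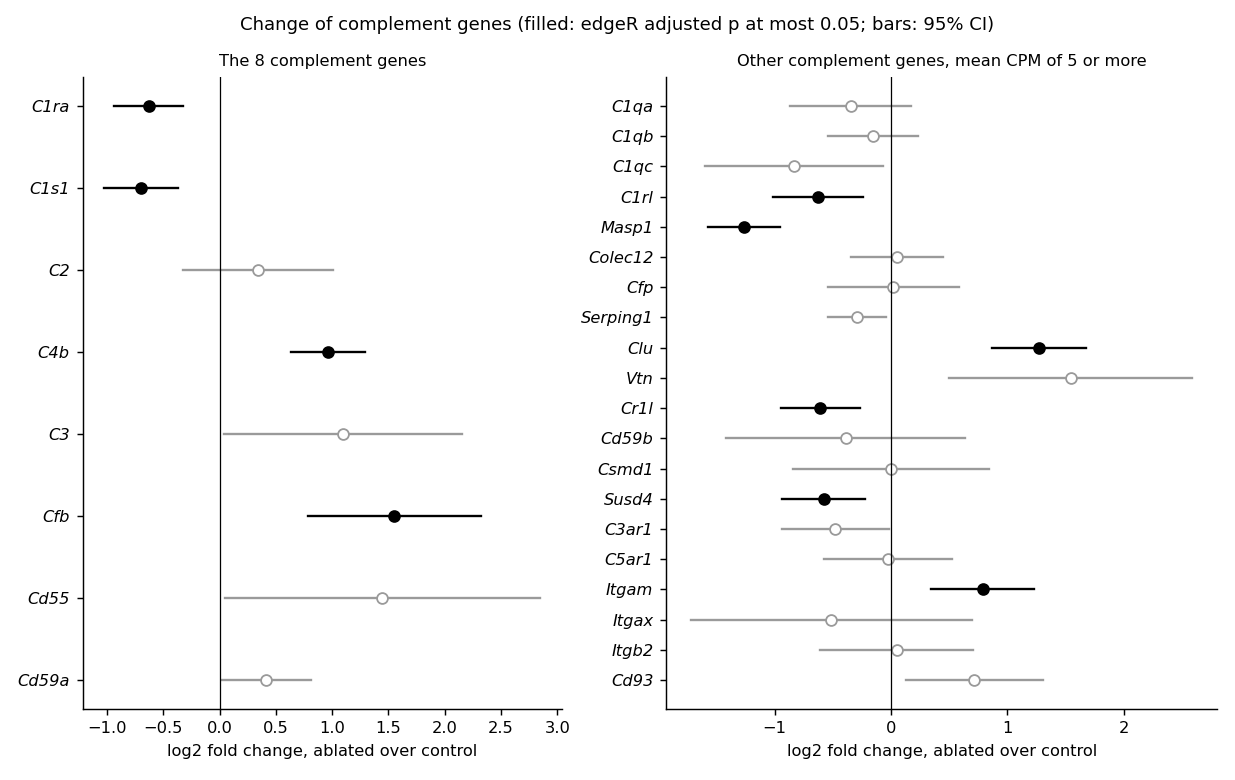
Log2 fold change (ablated over control) with its 95% interval for the 8 complement genes (left) and for 20 tested genes of the wider list with a mean of at least 5 CPM (right). Filled black points passed an adjusted p of 0.05, open grey points did not. The black points lie left of 0 for C1ra, C1s1, C1rl, Masp1, Cr1l and Susd4 and right of 0 for C4b, Cfb, Clu and Itgam.

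On the lectin route Masp1, which encodes a protease related to C1r and C1s, had 269 ± 1.13 CPM in controls and 112 ± 12.6 in ablated libraries, a change of -1.27 ± 0.14 (adjusted p = 0.000114). Masp1 and Clu were called by both criteria in all 16 alternatives. The collectin gene Colec12 was at 188 ± 41.0 and 196 ± 28.6 CPM and did not pass (0.055 ± 0.18, adjusted p = 0.919). Among membrane inhibitors Cr1l, which encodes the mouse convertase inhibitor Crry, was lower at 134 ± 12.5 and 87.8 ± 7.57 CPM (-0.61 ± 0.16, adjusted p = 0.0313). Susd4 was lower as well, at 233 ± 42.4 and 156 ± 15.0 CPM (-0.58 ± 0.16, adjusted p = 0.0469). These 2 calls were lost in 11 and 10 of 16 alternatives. Cr1l lost its call in every fit without a library (-0.68 to -0.53), and Susd4 in every one (-0.66 to -0.42) but that without control replicate 3.

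None of the C1q chains, which bind the targets of the classical route, passed the test. C1qa was at 128 ± 25.2 and 101 ± 34.7 CPM, C1qb at 146 ± 22.3 and 131 ± 23.2 CPM and C1qc at 67.0 ± 15.2 and 37.6 ± 21.0 CPM, with adjusted p of 0.474, 0.711 and 0.196. C1qc was lowest in ablated replicate 2 and was called in the fit without ablated replicate 1. Of the terminal components only C8g was tested (-0.090 ± 0.56, adjusted p = 0.961). Hc (the gene of C5), C6, C7 and C8b had too few counts, so a change in them was not detectable at this depth. Of the receptors and receptor chains, 1 of 7 passed: Itgam, a chain of complement receptor 3, had 34.8 ± 5.20 CPM in controls and 60.2 ± 7.75 in ablated libraries (0.79 ± 0.20, adjusted p = 0.0316). That call was lost in 7 of 16 alternatives, among them every fit without a library (0.69 to 0.85) but that without control replicate 3. The anaphylatoxin receptor genes C3ar1 (-0.48 ± 0.21, adjusted p = 0.224) and C5ar1 (-0.026 ± 0.25, adjusted p = 0.977) did not pass.

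Cytokine receptors and transcription factors known to act on complement genes were read from a list of 14, of which 13 were tested. Of these 3 were higher and none lower (3 of 13, against 8.48% of all genes), with a median change of 0.34. The interleukin 1 receptor gene Il1r1 rose from 16.3 ± 7.38 to 52.6 ± 10.7 CPM (1.69 ± 0.34, adjusted p = 0.00804). Il6st, for the shared gp130 receptor chain, rose from 529 ± 60.6 to 972 ± 33.0 CPM (0.88 ± 0.12, adjusted p = 0.000652). Stat3 was marginal (0.58 ± 0.16, adjusted p = 0.0442) and lost its call in 9 of 16 alternatives, with values of 0.42 (without control replicate 1) to 0.68 (without control replicate 2) in the 6 fits that left out a library, all of which lost it. Irf1 (0.34 ± 0.22), Nfkb1 (0.062 ± 0.30) and Rela (0.037 ± 0.18) did not pass, with adjusted p of 0.449, 0.948 and 0.948. Whether these genes have a part in the levels of the complement genes was not tested.

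Markers of other cells were read beside these results, since leukocytes and vessels also express complement genes. The counts are of an adjusted p of at most 0.05, which 4.68% of all genes tested reached as higher and 3.8% as lower. Of 14 leukocyte and macrophage markers, 2 were higher (Cd74 and Laptm5) and none lower, and their summed level was 5141 to 5556 TPM in controls and 7320.2 to 8009.5 in ablated libraries, most of it Cd74 (a mean of 3079 and 5201 TPM). Defining leukocyte genes were present without passing the test, with Ptprc at 39.4 ± 15.7 and 45.1 ± 6.46 CPM and Csf1r at 276 ± 43.0 and 324 ± 43.2 CPM. The markers went both ways, with a positive change in 8 of the 14 and a negative one in 6. Among the latter, Tyrobp was at 28.8 ± 8.37 and 16.7 ± 4.22 CPM (-0.79 ± 0.30, adjusted p = 0.143). Vascular endothelial markers were higher in 5 of 8 (629 to 766 against 1019.7 to 1103 TPM) and mural cell markers in 4 of 8 (474 to 539 against 910.1 to 974 TPM). Of 5 Schwann cell markers 1 was higher (125 to 141 against 185 to 202 TPM). Of 7 tested corneal epithelial markers 3 were lower and 1 higher (55.2 to 91.9 against 5.27 to 10.4 TPM), and of 3 tested adipocyte markers none passed (24.2 to 39.3 against 22.7 to 36.1 TPM). Of 8 keratocyte markers 7 were lower (79910.1 to 88182 against 55260.5 to 57575 TPM). The sums are over all listed markers that were measured, tested or not. They are in TPM, without the TMM scaling behind the calls, so the 2 are not on the same scale. Scaled by library totals only, the median log2 fold change of all genes was 0.17, against 0.0046 with TMM. The part of these markers' cells in the changes of C4b, Cfb, C1ra, C1s1 and Clu was not tested.

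The genes whose profile over the 6 libraries was most like that of each gene that passed were taken by Pearson's r of log2 CPM among the 11048 genes whose mean count reached 100. They were Ppt1 (r = 0.989) and the uncharacterised LOC115490200 (0.990) for C1ra, Serinc1 (0.991) and Cpq (0.991) for C1s1, Cxcl14 (0.998) and Mocs2 (0.998) for C4b, and Ackr3 (0.996) and Lbh (0.993) for Cfb. These values describe 6 libraries that share the difference between groups. Cxcl14, a chemokine gene, had a mean of 4.35 CPM in controls and 58.2 CPM in ablated libraries, and the chemokine scavenger receptor gene Ackr3 had 18.6 and 30.3 CPM.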

How the data were processed

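RNA of sorted keratocytes was measured in 3 control and 3 Ptch1-ablated samples, with groups and replicate numbers read from the sample titles. Reads were aligned by the authors with Bowtie2 2.2.5, and RSEM 1.2.12 gave the values per gene. The submitters' processing notes name these tools and the mm9 build, while annotation release and strandedness were not given in the sources used here. The deposited table holds expected counts per gene, which are not normalized (18.6% are not whole, since RSEM divides shared reads), TPM values, in which the authors corrected for transcript length and gave each library the same sum, and FPKM values, in which the authors corrected for length and depth and which entered no comparison. The labels name a TruSeq kit, and the study's methods name ribosomal depletion and a BGISEQ platform.

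Expected counts were rounded. Genes passing filterByExpr (13888 of 17606) were scaled by TMM and compared with edgeR's quasi-likelihood test (two-sided, no covariates). P-values were adjusted by Benjamini-Hochberg over every gene tested. The study's methods set a fold change of at least 2 beside an adjusted p of 0.05, and name no test. Its results text instead gives a fold change over 2 and a p under 0.05, not said to be adjusted. The SE is the log2 fold change divided by the root of F. TPM served to compare levels between genes. A count of 0 allows up to 3 counts, or 0.121 to 0.158 CPM, and this covers counting error only. Nothing states that libraries came from separate animals beyond the study's term biological replicates, so p-values measure the spread between these samples. Within groups every pair of libraries differed by more than sampling noise (chi-square per degree of freedom of at least 34.8). The edgeR, DESeq2 and limma steps were also run on counts simulated with edgeR's own dispersions, and no result here rests on those runs. In them limma was given scaled counts in place of TPM.

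The genes and lists were chosen with earlier results of these data known. The result of 1 gene of the wider list is not reported here, and the counts of that list leave it out. Named were all 8 genes, members of the fixed lists with those past the adjusted p of 0.05 first, Ptch1 and Gli1, and for each gene that passed the 2 genes most like it. The alternatives were DESeq2, RLE, upper quartile and total scaling, no filter, a minimum mean count of 50, a replicate block, limma on log2(TPM) with pseudocounts of 1 and 0.1, the fits without 1 library, and 2 other thresholds. Leaving out both libraries that stood apart was added after seeing the data. Promoters and motifs used RefSeq sequences of GRCm38.p6, and neighbours, overlaps and transcript identity (local alignment of the longest transcripts) GENCODE M21 on GRCm38, both by gene symbol. Protein sequences were not used here. The tools were DESeq2 1.42.0, limma 3.58.1 and edgeR 4.0.16 in R 4.3.3, and Python 3.11.15.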

Additional observations from a re-analysis of the deposited data

How the results depend on the processing

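The directions of all 8 genes held in each of 16 alternatives, the range for C2 being 0.035 (without ablated replicate 3) to 0.54 on the log2 scale. Of the 8 genes 1 was called by adjusted p and fold change, and 2 by library totals only (C4b and Cfb), 3 in limma on log2(TPM + 1) (C4b, Cd55 and Cfb), 2 in limma on log2(TPM + 0.1) (C4b and Cfb), and 0 to 2 when 1 library was left out. That count was 0 without ablated replicate 3, 2 without ablated replicate 2 (C3 and Cfb) and 2 without both libraries that stood apart (C3 and Cfb), which was chosen after the data were seen. Without control replicate 2 the 1 gene called was C4b in place of Cfb. Dropping the fold minimum gave 4, and p before adjustment with a fold change over 2 gave 3 (C3, Cd55 and Cfb). Of the wider list 2 genes were called (Clu and Masp1), 4 in limma on log2(TPM + 0.1) (Vtn and Itgam added) and 6 with no fold minimum, and 2 to 3 when 1 library was left out. Vtn made it 3 in DESeq2, by library totals only, with no filter, in limma on log2(TPM + 1) and with p before adjustment. Over all genes 763 were called, 1178 with no fold minimum and 1250 with the unadjusted p. Scaling by library totals only moved the median log2 fold change of all genes to 0.17 and the share of higher calls from 61.2% to 73.0%. The replicate block gave 663 calls over all genes, 1 among the 8 genes and 2 in the wider list. The numbers did not pair the libraries, since deviations from the group means correlated at -0.030, -0.057 and 0.036 for replicates 1, 2 and 3 across genes. For the lowest genes, C3 and Cd55 (27.3 to 429 counts), the SEs were 0.49 and 0.64. Where a call changed, the cause was not tested.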
